A study of Oryzias latipes and Danio rerio with 6 samples.

Results

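Described here are the stretches of medaka (Oryzias latipes) chromosomes that were listed for both Yap1 and its teleost paralogue Yap1b, away from the chromosome ends. A region belonged to the set when a row of the Yap1 list overlapped a row of the Yap1b list by 1 bp or more, and when its midpoint lay on chromosomes 1 to 24 and more than 1 Mb from both ends of the chromosome. This gave 1930 Yap1 regions and 1930 Yap1b regions, 3860 of the 8004 positive medaka regions and of the 52712 regions of all 8 lists in the series. The regions formed 1986 overlapping pairs, because some met more than one partner. The members were chosen by the deposited positions in both positive lists, so their overlap and its extent are a description, with no test.

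The medaka samples were wild-type whole embryos injected with mRNA for the DNA adenine methylase Dam fused to medaka Yap1 (DAM-mYap1), to medaka Yap1b (DAM-mYap1B) or to GFP (DAM-mGFP), with 1 sample of each. The sample labels give stage 16, whereas the protocol text gives 80% epiboly for both fish species. Per the labels' protocols, a replicate came from 40 embryos, and 3 replicates per sample are named. Each factor was represented by 1 list of regions without values per replicate, and whether the replicates were pooled is not stated. All differences below are therefore descriptions of these lists, with no replicate check, and the Clopper-Pearson 95% intervals cover counting of regions only. The zebrafish samples of the series were used only to count regions. The fusion proteins came from injected mRNA, and whole embryos mix all cell types, so a region cannot be tied to a tissue.

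Yap1 and its relatives are co-activators that the Hippo kinase cascade keeps out of the nucleus when it is active. They hold no DNA-binding domain and reach DNA through partner proteins, above all the TEAD transcription factors. In DamID the fused methylase marks the adenine of nearby GATC sites, and the fragments between marked sites are amplified and sequenced. Dam fused to GFP has no target of its own and serves as the background of accessible DNA. Each factor has a positive list and a control list, the latter deposited under Dam-GFP, and both factors share that Dam-GFP sample. A paralogue pair such as Yap1 and Yap1b may be drawn to the same sites by the same partners or may have parted, and the regions in both lists are the common portion.

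Of the inner regions, 59.5% of 3241 in the Yap1 list (57.8 to 61.2) and 63.9% of 3020 in the Yap1b list (62.2 to 65.6) belonged to the set. The same overlap was counted for the control lists, where 28.3% of 3484 inner regions of the Yap1 control list and 40.3% of 2437 of the Yap1b control list overlapped a region of the other. The inner regions outside the set were 1311 for Yap1 alone and 1090 for Yap1b alone. The set covered 2226 kb in the Yap1 list and 2124 kb in the Yap1b list. The bases covered by both came to 1880 kb, which is 84.4% of the Yap1 and 88.5% of the Yap1b length. The Yap1 regions took up 0.330% of the 675 Mb of inner chromosome.

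The gaps between neighbouring regions had a sharp lower limit. Neighbouring regions of a list never touched, and the smallest gap between them was exactly 4 bp, the length of a GATC site, in all 4 medaka lists. That gap occurred 118 times in the whole Yap1 list and 96 times in the whole Yap1b list, against 6 and 2 gaps of 5 to 19 bp. A genome sequence was not used here, so the letters in these gaps were not read. The overlaps themselves were never small. The shortest shared stretch was 200 bp, on chromosome 9 (24222686 to 24222885), and 200 bp was also the shortest region in either set. Just outside the rule, 20 Yap1-only regions and 17 Yap1b-only regions lay 4 bp from a region of the other factor. At the 1 Mb limit, the nearest member on the inner side was on chromosome 22 (27720194 to 27721103), with its midpoint 1004 kb from the end. The nearest shared Yap1 region on the outer side was on chromosome 8 (24870071 to 24870495), at 995 kb.

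Most pairs had the same boundaries in both lists. Start and end were identical in 1179 of 1986 pairs (59.4%, 57.2 to 61.5), 1 edge was identical in 695 pairs (35.0%, 32.9 to 37.1), and neither edge in 112 pairs (5.64%, 4.67 to 6.75). In the 994 inner control pairs the same classes held 76.0% (73.2 to 78.6), 22.7% and 1.31%, so identical edges were the more common in the control lists. When boundaries differed, the Yap1 region contained the whole Yap1b region in 426 pairs, the reverse held in 333, and 48 pairs were staggered. A pair with 1 identical edge is nested by definition. Only the 112 pairs with neither edge identical could be staggered, so the small count of staggered pairs is largely fixed by these classes. Beyond the overlap, the longer region ran a median of 801.5 bp where it was the Yap1 region (quartiles 494 and 1258 bp). Where it was the Yap1b region, the median was 758 bp (quartiles 487 and 1235 bp). A region with several partners was counted once per partner, so part of this length can lie in another partner. The common core, or overlap, of pairs with 1 identical edge had a median of 749 bp, against 834 bp for pairs with both edges identical.

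Score had little to do with how boundaries matched. The authors' score is a whole number of unstated quantity and is used here only within a list. Pairs with both, 1 and no identical edges had median Yap1 scores of 141, 142 and 152, and median Yap1b scores of 195, 193 and 210. Across 4 equal classes of rising Yap1 score, identical edges were found in 62.2%, 58.1%, 58.5% and 58.8% of pairs, with intervals that overlap. By Yap1b score the shares were 59.0%, 58.7%, 61.5% and 58.4%.

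A few regions formed 1 stretch for one factor and several for the other. Among the Yap1 regions 1876 met 1 Yap1b region, 52 met 2 and 2 met 3. Among the Yap1b regions 1877 met 1 Yap1 region, 50 met 2 and 3 met 3. The longest member, a Yap1 region of 8286 bp on chromosome 20 (13034135 to 13042420, score 324), held Yap1b regions at 13035987 to 13037433, 13037624 to 13038963 and 13039106 to 13042420. Their Yap1b scores were 192, 525 and 230, so the middle piece stood highest. On chromosome 24 a Yap1 region of 3526 bp (22910713 to 22914238, score 400) held Yap1b regions of 480, 364 and 1836 bp, scored 157, 156 and 290. The first and second of these were separated by 4 bp.

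The reverse was seen on chromosomes 11 and 21. A Yap1b region of 1482 bp on chromosome 11 (4947887 to 4949368, score 486) held Yap1 regions of 343, 325 and 327 bp, scored 135, 242 and 115. A second on the same chromosome (17239778 to 17241404, score 164) held Yap1 regions scored 107, 101 and 89. On chromosome 21 a Yap1b region of 3096 bp (19021906 to 19025001, score 313) held Yap1 regions of 855, 810 and 697 bp, each 4 bp from the next, scored 134, 112 and 283. One deposited region of a factor could thus hold several of the other, although both outer edges were the same only in the cases on chromosome 11.

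The Yap1 regions of the set had a higher median length than those of Yap1 alone, whereas the intervals of both Yap1b medians overlapped. Shared Yap1 regions had a median length of 1010 bp (95% interval of the median 964 to 1052), against 838 bp (779 to 885) for Yap1-only regions. Shared Yap1b regions had a median of 930.5 bp (887 to 970), against 954 bp (916 to 998) for Yap1b-only regions. A longer region is more likely to meet another, so the rule itself bears on this comparison. Regions of 2000 bp or more made up 11.5% (10.1 to 13.0) of shared and 7.32% (5.97 to 8.87) of Yap1-only regions, and 10.2% (8.84 to 11.6) of shared and 6.97% (5.53 to 8.65) of Yap1b-only regions. Long regions were thus the more frequent among shared regions in both lists.

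**Figure D1:**
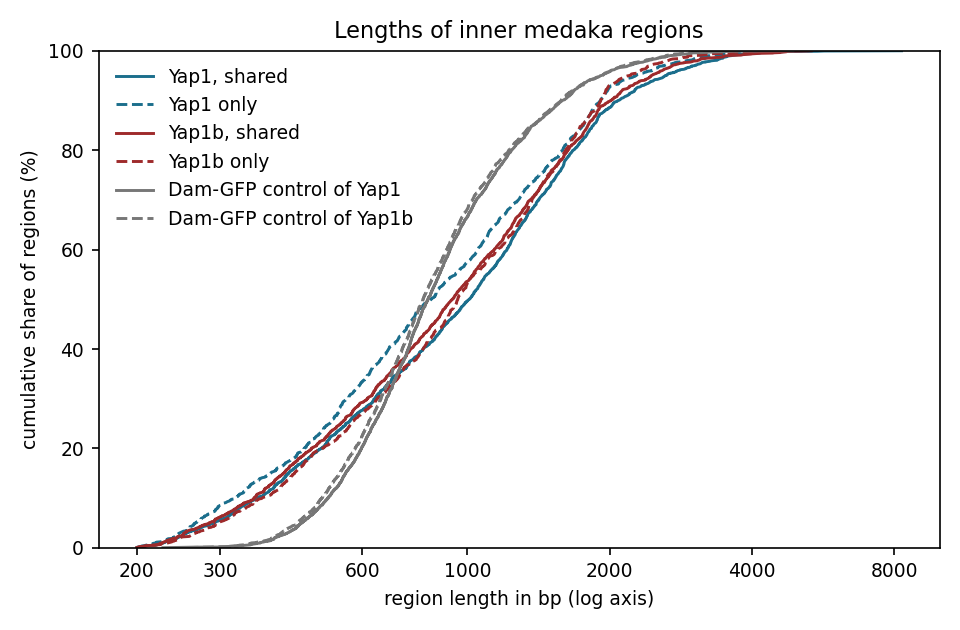
Cumulative share of inner medaka regions (percent) by length in bp on a log axis, for shared and one-list regions of Yap1 and Yap1b and for all inner Dam-GFP control regions. The positive curves start at 200 bp and spread widely, whereas the control curves hold almost no region under 300 bp and rise more steeply.

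Short regions also belonged to the set, as they did to the one-list regions. Regions under 300 bp numbered 107 (5.54%, 4.57 to 6.66) among shared Yap1 and 119 (6.17%, 5.13 to 7.33) among shared Yap1b regions. Regions of that length made up 8.47% (7.02 to 10.1) of Yap1-only and 5.14% (3.90 to 6.62) of Yap1b-only regions. In the shared control regions there were 2 of 986 and 0 of 983, the latter with an upper bound of 0.375%. Of the 107 pairs with a short Yap1 region, 86 had a short Yap1b region too, all 86 with identical edges. No region or overlap was under 200 bp, so overlapping regions both under 300 bp had little room to differ. Their identical edges are thus largely fixed by length. Where the partner of a short region was longer, its median length was 1188 bp for Yap1b partners and 1149 bp for Yap1 partners. The short shared regions had a median score of 146 against 141 for all shared regions in the Yap1 list, and of 179 against 193 in the Yap1b list, so the order differed between the lists. Length and score were only weakly related over members, with Spearman rho 0.107 in the Yap1 and 0.0860 in the Yap1b list, given as descriptions over 1930 regions each.

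A region scored high for Yap1 tended to be scored high for Yap1b. Over the 1986 pairs the scores had a Spearman rho of 0.538, a description only, since both lists were set against the same Dam-GFP sample and neighbouring regions are not independent. The 994 control pairs gave a rho of 0.526. Shared Yap1 scores ran from 79 to 935 with a median of 141, and shared Yap1b scores from 112 to 1000 with a median of 193. Medians of the one-list regions were 104 for Yap1 and 140 for Yap1b.

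**Figure D2:**
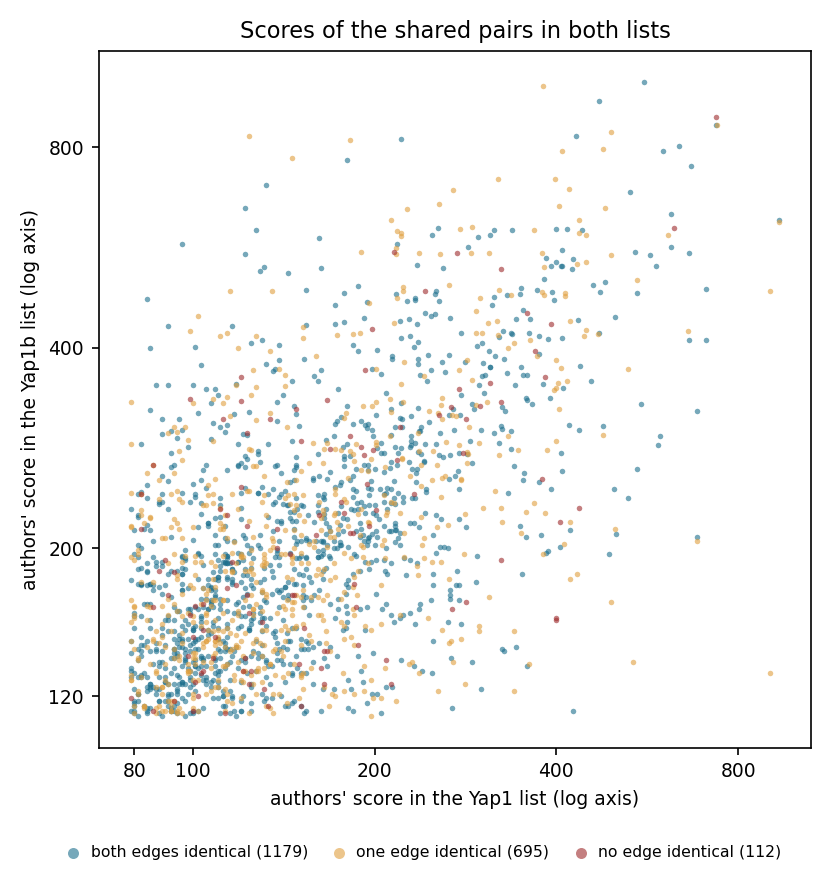
Authors' score of each of the 1986 shared pairs in the Yap1 list (horizontal, log axis) and in the Yap1b list (vertical, log axis), coloured by how many edges are identical. The points form a broad rising cloud, and the colours are mixed throughout, with median Yap1 scores of 141, 142 and 152 for both, 1 and no identical edge.

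Pairs tended to fall in the same score class of both lists. All inner regions of each list were placed in 4 score classes of equal size, but the pairs were unequally spread: the highest Yap1b class held 690 of them (34.7%) and the lowest 310 (15.6%). Of the 704 pairs in the highest Yap1 class, 448 (63.6%) were in the highest Yap1b class and 36 (5.11%) in the lowest. Of the 301 pairs in the lowest Yap1 class, 104 (34.6%) were in the lowest Yap1b class and 43 (14.3%) in the highest. Against the share of all pairs in the Yap1b class, the highest class was thus met 1.83 times and the lowest 2.21 times as often by pairs of the same Yap1 class. In all, 913 pairs (46.0%) fell in the same class of both lists and 79 in opposite outer classes. Above the 90th percentile, 290 of 326 Yap1 regions and 282 of 303 Yap1b regions belonged to the set, and 159 pairs were above it in both lists. Over all inner regions, 59.5% of Yap1 and 63.9% of Yap1b regions belonged to the set. The inner regions start at a lowest score, 79 for Yap1 and 112 for Yap1b, whose part in these shares was not tested.

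**Figure D3:**
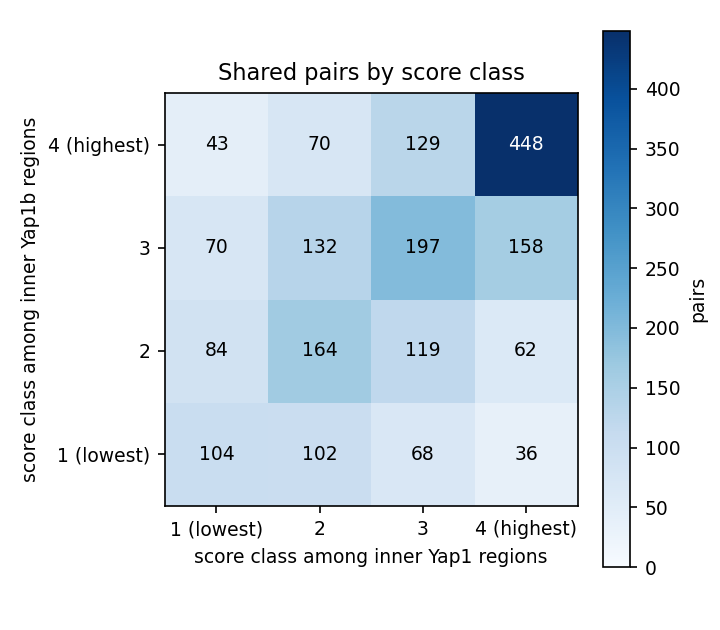
Number of shared pairs by score class among inner Yap1 regions (horizontal) and inner Yap1b regions (vertical), with class 1 the lowest and class 4 the highest. The corner of highest classes holds 448 pairs, and the opposite corners hold 43 and 36.

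The 10 pairs ranked highest in both lists were spread over 8 chromosomes. In 7 of them the boundaries were identical. The first was on chromosome 2 (28287357 to 28289383), with a Yap1 score of 739 and a Yap1b score of 862, and the Yap1b region ran on to 28289777. The second, on chromosome 22 (4133302 to 4134949, 1648 bp), had scores of 735 and 862, and another on that chromosome (7333550 to 7334116, 567 bp) had 669 and 749. On chromosome 15 a Yap1 region of 1397 bp (12092832 to 12094228, score 734) lay inside a Yap1b region of 2701 bp scored 887.

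Further pairs of that group lay on chromosomes 23, 10 and 21, all with identical edges. The pair on chromosome 23 (19773612 to 19774549) was scored 638 for Yap1 and 804 for Yap1b. The pair on chromosome 10 (1140247 to 1141097) was scored 601 and 789. The pair on chromosome 21 (6823779 to 6824833) was scored 559 for Yap1 and held the highest Yap1b score, 1000.

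Chromosome 17 held 2 of these pairs and chromosome 19 held 1. The first on chromosome 17 (5087483 to 5087993) was scored 619 and 635. The second (29603087 to 29603599) had the highest Yap1 score of all members, 935, beside a Yap1b score of 617 over a longer region of 1094 bp. The pair on chromosome 19 (19640717 to 19642317) was scored 934 for Yap1 and 621 for Yap1b. The lowest percentile among the 10, in either list, was 99.0 after rounding, for the Yap1b region paired with the Yap1 score of 935.

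Some members stood far apart in rank although their boundaries were the same. A region of 390 bp on chromosome 4 (22100805 to 22101194) was at the 97.9th percentile for Yap1, with a score of 427, and at the 2.90th percentile for Yap1b, with a score of 114. Regions of identical edges on chromosome 9 (4608077 to 4611038, scores 269 and 115) and chromosome 16 (21767564 to 21769030, scores 205 and 113) showed the same order. Completing the 5 with the widest gap towards Yap1 were regions on chromosome 8 (13169053 to 13171453, scores 340 and 122) and chromosome 9 (27498745 to 27499239, scores 197 and 112). The Yap1b scores of these 5 lay between 112 and 122, close to the lowest score of that list, 112.

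The opposite order was led by a pair on chromosome 13 (2724378 to 2724825), with the lowest Yap1 score, 79, beside a Yap1b score of 331 over 1817 bp. On chromosome 21 a region of identical edges (27970869 to 27972139) was scored 84 for Yap1 and 473 for Yap1b. On chromosome 5 another (22399519 to 22401056) was scored 85 and 400. The others were on chromosome 24 (21227469 to 21227839, scores 79 and 287) and chromosome 9 (13013410 to 13013907, scores 82 and 287). The Yap1 scores of these pairs lay between 79 and 85, close to the lowest score of that list, 79. Ranks in lists of different length show a place within each list and not a change in binding, and without read depth the error of a single score is unknown.

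Pairs at the bottom of both lists could still share their edges. Of the 5 pairs lowest in both, 4 had identical boundaries. A pair of them lay on chromosome 13 (1967521 to 1968094, scores 79 and 114, and 14573662 to 14573974, scores 80 and 113). The others were on chromosome 15 (27493609 to 27494670, scores 80 and 114) and on chromosome 6 (2652350 to 2652892, scores 81 and 112). In the fifth, on chromosome 11, a Yap1 region (4067673 to 4068176, score 80) lay within a Yap1b region of 1408 bp scored 113.

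The 5 largest overlaps were not of extreme score. They spanned 4737 bp on chromosome 7 (21843479 to 21848215, scores 185 and 270), 4668 bp on chromosome 6 (8483172 to 8487839, scores 114 and 190) and 4609 bp on chromosome 14 (8647855 to 8652463, scores 223 and 235). A second on chromosome 7 spanned 4165 bp (25374590 to 25378754, scores 148 and 220), and 1 on chromosome 5 spanned 3811 bp (26664268 to 26668078, scores 236 and 279). Identical edges were listed for all but the first. In the Yap1 list their score percentiles ran from 43.7 to 87.1.

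The members were unevenly spread over the chromosomes. Shared Yap1 regions averaged 2.90 ± 0.701 per Mb of inner chromosome (SD over 24 chromosomes), from 0.964 on chromosome 2 to 4.18 on chromosome 20, a 4.34-fold range. Over all 24 chromosomes Yap1-only and Yap1b-only regions ranged 3.23-fold and 2.72-fold, and the Yap1 and Yap1b control lists 1.69-fold and 2.07-fold. Without chromosome 2 the ranges were 2.53-fold for shared, 2.31-fold for Yap1-only and 2.72-fold for Yap1b-only regions. Those of the control lists did not change. A wide range was thus not limited to shared regions. Chromosome 2 carried 28 shared Yap1 regions on 29.1 Mb, and chromosome 20 carried 95 on 22.7 Mb. The density of these chromosomes in the Yap1 control list was 4.99 and 4.49 per Mb, the reverse order. In the Yap1b control list it was 3.03 and 3.39 per Mb, the same order as for shared regions. However, 7 of the 29 full inner windows of 1 Mb on chromosome 2 held no region of any medaka list, against 17 of 661 such windows on all chromosomes. Outside those 7 windows chromosome 2 carried 1.27 shared and 6.57 Yap1 control regions per Mb. Chromosome 18 was the next lowest, at 1.66 shared regions per Mb.

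**Figure D4:**
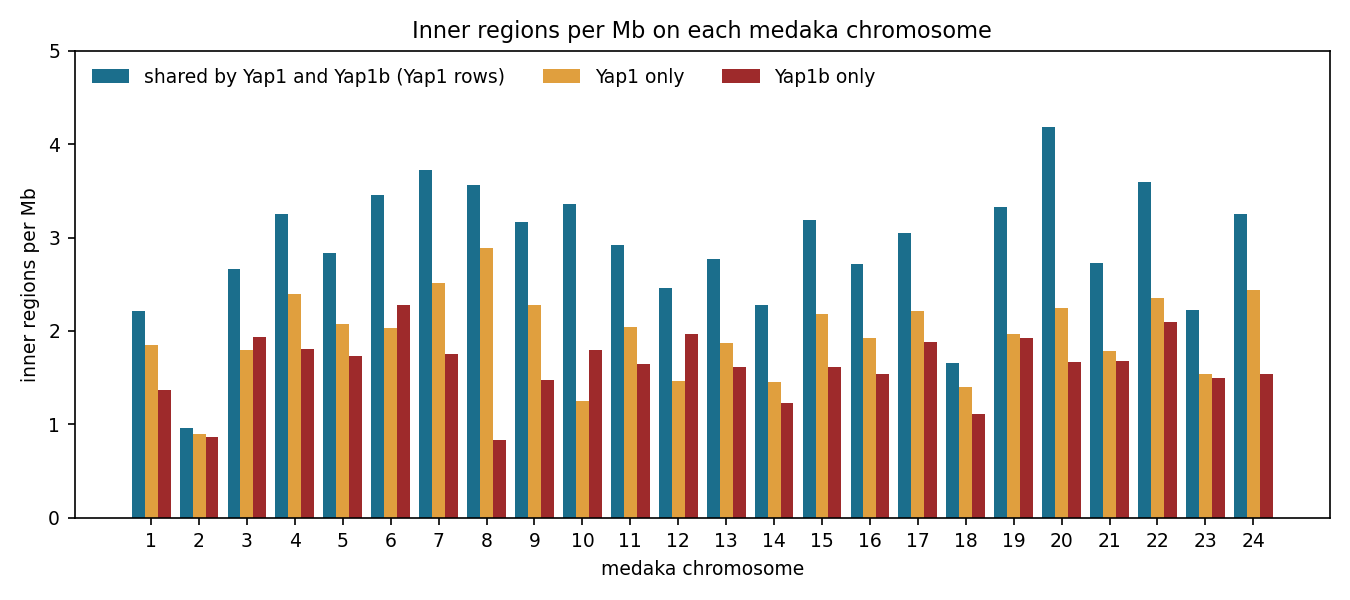
Inner regions per Mb on each of the 24 medaka chromosomes, as bars from 0 for shared regions (Yap1 rows), Yap1-only regions and Yap1b-only regions. Shared regions are lowest on chromosome 2 at 0.964 and highest on chromosome 20 at 4.18 per Mb.

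Chromosomes poor in shared regions were also poor in regions of Yap1 alone. Over the 24 chromosomes the density of shared regions had a Spearman rho of 0.743 with that of Yap1-only regions, 0.436 with that of Yap1b-only regions, and 0.0696 and 0.149 with the Yap1 and Yap1b control lists. Without chromosome 2 these were 0.708, 0.378, 0.0632 and 0.0445 over 23 chromosomes. These are descriptions, and the positive lists share the Dam-GFP sample and the base composition of each chromosome. Chromosome 2 carried 0.895 Yap1-only and 0.860 Yap1b-only regions per Mb, so it was low in all 3 classes.

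The shared portion itself varied less. The shared share of inner Yap1 regions averaged 59.5% ± 4.15 over chromosomes and that of Yap1b regions 63.7% ± 5.62. Chromosome 10 had the highest Yap1 share, 72.9% of 118 regions (63.9 to 80.7), and chromosome 2 the lowest, 51.9% of 54 (37.8 to 65.7). Chromosome 8 had the highest Yap1b share, 81.5% of 108 regions (72.9 to 88.3), as it held 20 Yap1b-only regions. Its Yap1 share was 55.2% of 154 regions (47.0 to 63.2), with 69 Yap1-only regions, so the lists were unequal on that chromosome. Its density of control regions was also the highest of the 24 in both control lists, at 7.21 and 4.94 per Mb, and its part in these shares was not tested.

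From the ends towards the centre of the chromosomes the shares of members varied less than those of the control regions. The inner part of each chromosome, folded at its midpoint, was cut into 5 equal parts. Each of these held between 18.6% and 20.9% of shared Yap1 regions, with 18.6% (16.9 to 20.4) in the outermost part. Shared Yap1b regions went from 18.3% (16.6 to 20.1) in the outermost part to 21.6% (19.7 to 23.5) in the innermost. The Yap1 control list went from 29.4% (27.9 to 30.9) in the outermost part through 21.0%, 17.9% and 15.9% to 15.8% (14.6 to 17.1). Yap1-only regions held 22.1% (19.9 to 24.5) in the outermost part, and Yap1b-only regions 21.2% (18.8 to 23.7). Over the 5 parts, Yap1-only shares ran from 17.8% to 22.1% and Yap1b-only shares from 17.3% to 22.4%. The shares of one-list regions thus also varied less than those of the control regions.

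Members were more often near one another than regions of a single list were, but this depended on how sharing was defined and on which regions were counted. The nearest other shared Yap1 region lay within 10 kb for 413 of 1930 regions (21.4%, 19.6 to 23.3), and within 50 kb for 42.0%. The nearest other Yap1-only region lay within 10 kb for 12.4% (10.7 to 14.3) of Yap1-only regions. Shared regions were more numerous, 2.86 against 1.94 per Mb, which alone brings neighbours nearer. The rule also makes every Yap1 region that meets the same Yap1b region a member, and such members are near one another by construction. Among the Yap1b regions, 50 met 2 Yap1 regions and 3 met 3. When neighbours of any kind in the Yap1 list were counted, the shares within 10 kb were 28.7% (26.7 to 30.8) for shared and 22.7% (20.4 to 25.0) for Yap1-only regions. In the Yap1b list they were 27.9% (25.9 to 29.9) and 19.9% (17.6 to 22.4). When sharing required 50% of both regions, 13.9% (12.2 to 15.7) of shared Yap1 regions lay within 10 kb of another shared region. Of the remaining Yap1 regions, 15.6% (13.9 to 17.4) lay within 10 kb of another such region. With identical edges required, the shares were 10.4% and 21.0%, so the order turned, at 50% with overlapping intervals. Here the remaining regions outnumbered the shared ones, 1675 against 1566 at 50% and 2062 against 1179 with identical edges, which brings their neighbours nearer. Both rules also leave a region a single partner at most, so they move neighbours that met the same region out of the set. The turned order is thus partly built into these rules. With neighbours of any kind, the shares were 26.2% and 26.3% at 50%, and 23.9% and 27.6% with identical edges. For neighbours of the same class, keeping regions at or above the median score gave 12.8% (10.7 to 15.1) and 8.87% (6.85 to 11.2). Merging regions within 1 kb gave 13.6% (12.1 to 15.3) and 7.70% (6.27 to 9.33). Shared regions were the more numerous here, 925 against 688 and 1839 against 1234. With neighbours of any kind, the median score setting gave 17.8% (15.4 to 20.5) and 16.0% (13.3 to 18.9). Merging gave 19.4% (17.6 to 21.3) and 15.9% (13.9 to 18.0), so the intervals overlapped in both settings. The median distance from a shared Yap1 region to the nearest other was 71.2 kb.

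Part of these neighbours were separated by 4 bp alone. A gap of 4 bp separated 49 successive pairs of shared Yap1 regions and 48 of shared Yap1b regions, involving 97 and 96 regions. Scores within these pairs had a Spearman rho of 0.371 in the Yap1 and 0.450 in the Yap1b list, as descriptions.

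Linked at gaps of up to 10 kb, the 1930 shared Yap1 regions formed 1707 groups, of which 1517 held 1 region, 161 held 2, 25 held 3 and 4 held 4. The 4 largest groups spanned 16620 bp from position 23523798 of chromosome 6, 18759 bp from 1960586 of chromosome 13, 14687 bp from 16813158 of chromosome 17 and 19777 bp from 4540707 of chromosome 11. Along the group on chromosome 6 the Yap1 scores were 336, 145, 304 and 343, and the Yap1b scores of the partners were 420, 233, 342 and 442. High and low scores came in the same places in both lists there. On chromosome 17 they were 88, 285, 125 and 165 for Yap1, and 235, 383, 176 and 124 for Yap1b, so the order differed while the second region was highest in both. On chromosome 13 they were 310, 79, 111 and 176 for Yap1 and 354, 114, 113 and 251 for Yap1b. On chromosome 11 the Yap1 scores were 87, 132, 151 and 144. The Yap1b partners there were scored 124, 169 and 130, as 1 Yap1b region met both the second and the third Yap1 region.

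On a larger scale, of 661 full inner windows of 1 Mb, 99 (15.0%) held no shared Yap1 region, and the median was 2. The highest count in these fixed windows was 13. In windows of 1 Mb that instead started at a member, the highest count was 17 shared Yap1 regions, on chromosome 10 (6673877 to 7673876). That window also held 6 Yap1-only and 8 Yap1b-only regions, but only 1 and 2 regions of the Yap1 and Yap1b control lists. The next such windows were on chromosome 15 (10276028 to 11276027) and chromosome 24 (5734429 to 6734428), with 14 members each, and on chromosome 9 (27498745 to 28498744) and chromosome 15 (27261921 to 28261920), with 13 each. The last of these held 10 and 8 control regions, so windows dense in members could be poor or rich in control regions.

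The longest stretch without a shared Yap1 region was 8.39 Mb of chromosome 2 (7021699 to 15409206). It held 2 Yap1-only and 1 Yap1b-only region, and 8 and 9 regions of the Yap1 and Yap1b control lists. From 8000001 to 12000000, inside this stretch, no region of any medaka list was placed. The next stretches were 4.11 Mb of chromosome 14 (24161777 to 28276708) and 3.54 Mb of chromosome 1 (6078841 to 9616823). The chromosome 1 stretch held 1 Yap1-only, 2 Yap1b-only, 1 Yap1 control and 2 Yap1b control regions and was thus also sparse in every list. A stretch of 2.91 Mb of the same chromosome (35436015 to 38350050) held 0 Yap1-only and 3 Yap1b-only regions but 16 regions of each control list. Whether reads could be mapped in these stretches cannot be told from the lists.

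Members kept their distance from Dam-GFP control regions much as one-list regions did. A control region of either list lay within 10 kb of 15.0% (13.4 to 16.6) of shared and 15.9% (13.9 to 18.0) of Yap1-only regions, and of 15.2% (13.6 to 16.9) of shared and 16.0% (13.8 to 18.3) of Yap1b-only regions. The median distance was 48.1 kb for shared and 42.8 kb for Yap1-only regions.

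No member overlapped a control region of its own factor, and 1 member of each list overlapped one of the other factor. The lowest inner score was the same in a factor's positive and control lists, 79 for Yap1 and 112 for Yap1b. How the lists were called is not given, so overlap within a factor may have been impossible by construction. Its absence is therefore no finding about the members. On chromosome 17 a Yap1 region (22858996 to 22861266, score 134) shared its start with a Yap1b region that ended at 22860560 (score 199). The Yap1b control region began 4 bp further on, at 22860565, and ended at 22861266 with the Yap1 region (score 178). On chromosome 23 a Yap1b region (1729487 to 1730925, score 151) met a Yap1 region from 1728940 to 1730037 (score 104). There a Yap1 control region began 4 bp further on, at 1730042, and ended with the Yap1b region (score 108). In both places the bases beside the common core were thus in the positive list of one factor and in the control list of the other, and the positive and control regions were 4 bp apart.

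No source used here names the assembly behind the medaka lists, and no genome was used. Regions were therefore not tied to genes, TEAD motifs or base composition, and coordinates are given as deposited, counted from 1.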

How the data were processed

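The iDamID-seq libraries were made from whole embryos, with 25 cycles of PCR, per the labels' protocols. The submitters' processing notes name bedtools, SAMtools, Bowtie2 and cutadapt with no version, and GRCz10 (danRer10), a zebrafish assembly. For medaka, the assembly, the caller and its cut-offs are not given in the sources used here. Per the file contents, the deposited lists give start, end and the authors' score, a whole number whose quantity is not stated. Depth is unknown. The factor paired with each Dam-GFP control list was read from the list's name. Chromosome ends were the largest region ends over the 4 medaka lists, a lower bound. Overlaps, gaps, nearest distances and intervals were computed in Python 3.11.15 with numpy 2.4.6, pandas 2.3.3 and scipy 1.17.1, and the overlap functions were tested on simulated data. No test was run, as each group had 1 sample. The members and lists were chosen with earlier results of these data known. Regions were named by rank in both lists, rank gap, overlap, density and number of partners, with additions for crossed overlaps, groups and empty stretches chosen after the values were seen.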

Additional observations from a re-analysis of the deposited data

How the results depend on the processing

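No paired analysis was possible because each group had 1 sample. The planned counts of TEAD motifs and of regions near genes were not run, since no genome or annotation of the medaka build was used. Requiring overlap of 50% of both regions gave shared shares of 48.3% (Yap1) and 51.9% (Yap1b), identical edges in 75.3%, a score rho of 0.569 and 13.9% of members within 10 kb of another. Requiring identical edges gave 1179 regions in each list, shares of 36.4% and 39.0%, a median length of 834 bp in both, 10.4% within 10 kb and, by construction, 100% identical edges. Keeping only regions at or above their list's median score gave 925 and 926 regions, shares of 57.3% and 59.9%, a Yap1 median length of 1071 bp, a rho of 0.488 and 12.8% within 10 kb. Merging regions within 1 kb gave 63.1% identical edges, medians of 1083 and 1008 bp and 13.6% within 10 kb. Widening the neighbour distance to 50 kb gave 42.0% near another member and 51.5% near a control region. Leaving out 2 Mb at chromosome ends, or none, moved no value beyond its interval. The other 42 values stayed within the interval of the reported value or within 1.5 times the reported count. Leaving out chromosome 2, its empty windows, and the neighbour shares of Yap1-only regions under these settings were chosen after seeing the data. Read depth, which would set the error of each score, is unknown.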
